A study of Mus musculus with 4 samples.

Results

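The genes described here are 4 guanylate-binding proteins (GBPs), Gbp2, Gbp3, Gbp6 and Gbp7, and 6 immunity-related GTPases (IRGs), Igtp, Irgm1, Irgm2, Iigp1, Tgtp1 and Tgtp2. They were taken by symbol from tables of 23238 symbols. All 10 were found, and all 10 passed the filter on low counts.

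GBPs and IRGs are large GTPases that cells make in response to interferons, above all interferon gamma. They gather on the membrane of vacuoles that hold bacteria or parasites, or on microbes in the cytosol, and help to break these compartments open. Effector IRGs such as Iigp1, Tgtp1 and Tgtp2 act on the vacuole, while the regulators Irgm1, Irgm2 and Igtp sit on the membranes of the host cell and keep the effectors inactive there. In T cells they are induced with the rest of the interferon response. Type I interferon mainly acts on genes through the interferon-stimulated response element (ISRE), which a complex with STAT2 and IRF9 binds, and interferon gamma through the gamma activated site (GAS) and the factor IRF1.

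The genes were measured in CD4+ T cells of C57BL/6j mice, either WT (2 libraries, WT 1 and WT 2) or PDK4 KO (2 libraries, KO 1 and KO 2). Pdk4 encodes a kinase that restrains pyruvate dehydrogenase. All libraries came from naive cells of spleen and lymph nodes, isolated with magnetic beads and then held for 48 hours in culture with CD3, CD28 and IL-2, so that no unstimulated culture and no interferon-treated culture stands beside them. The labels do not give the knockout allele, the age or sex of the mice, or whether the replicates were separate mice. The p-values therefore rest on the scatter between 2 libraries a genotype, which the test pools in part over all tested genes. This scatter may be technical.

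Total counts lay between 8837810 and 9739624 per library. Pdk4 had 1 and 0 counts in the wild-type and 0 and 2 in the knockout libraries, at or under the floor of 3 counts, which checks nothing about the labels. CPM is used here for counts scaled to library size with TMM factors. T cell genes were abundant in all 4 libraries (Cd3d at 662.5 ± 29.0 CPM in wild type and 593 ± 12.4 in knockout, Cd4 at 253 ± 2.13 and 259.6 ± 13.0, mean ± SD, n = 2 each). Of all tested genes, 1.45% rose and 1.21% fell in the knockout, which stands beside the marker counts that follow. Of 9 tested CD4 T cell markers 1 rose (Cd5, 0.29, adjusted p = 0.0341), 0 fell and 8 did not pass, among them Il2ra (-0.21, adjusted p = 0.0557). The call of Cd5 was lost without WT 2 (0.267), KO 1 (0.0768) or KO 2 (0.332) and with upper quartile scaling (0.0716). Of 15 tested B cell markers 12 fell in the knockout, and their summed level was 326 and 364 CPM in wild type against 177 and 189 in knockout. Of 12 tested markers of CD8 T and NK cells 1 fell and 11 did not pass. The fall was that of Gzma (-1.78, adjusted p = 7.55e-12), at 219 and 219 CPM in wild type and 76.1 and 51.2 in knockout. All 13 listed markers, Gzma among them, summed to 572 and 576 CPM in wild type against 410 and 364 in knockout. Of 15 markers of macrophages, monocytes and dendritic cells 9 stayed under 1 CPM in every library, with Fcgr1, Siglech and Cd209a at 0. Since these are bulk samples, fewer cells of a type and less RNA per cell cannot be told apart, and the part of these cells in the values of the GTPase genes was not tested.

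Upstream of their RefSeq start sites the members share interferon motifs, which the choice of genes did not use. RefSeq promoters on GRCm38.p6, 250 bases before to 50 after the start, were found for 8 members, namely Gbp2, Gbp3, Gbp7, Igtp, Irgm1, Irgm2, Tgtp1 and Tgtp2. The ISRE was searched as GAAA, any 2 bases and GAAA, and the GAS as TTC, any 3 bases and GAA, on both strands. No ISRE match shares a base with a GAS match in these 8 genes. All 8 genes held an ISRE match in at least 1 promoter, against 3.44% of the 32851 promoters in the table, and 5 held a GAS match, against 8.3%. Both motifs stood in 5 members and in 0.454% of all promoters. The stretches below are shown because they carry these matches, given on the strand of the gene with the matches in capitals. The RefSeq starts differ from the GENCODE vM21 gene positions that are given further below. By GENCODE the stretches of Irgm1, Irgm2 and Tgtp1, and the ISRE match of Gbp2, lie inside the gene body.

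Igtp, chr11:58199507-58199536 (plus strand): ccatTTCTAGGAActGAAACTGAAAgctgt
Irgm2, chr11:58214898-58214927 (plus strand): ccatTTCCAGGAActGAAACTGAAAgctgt
Tgtp1, chr11:48992309-48992338 (minus strand): ccatTTCCAGGAAtcGAAACTGAAAcctac
Tgtp2, chr11:49064268-49064297 (minus strand): ccatTTCCAGGAAtcGAAACCGAAAcctac
Irgm1, chr11:48871428-48871457 (minus strand): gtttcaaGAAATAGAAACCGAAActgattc
Gbp2, chr3:142620594-142620623 (plus strand): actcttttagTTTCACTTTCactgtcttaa
Gbp3, chr3:142559992-142560021 (plus strand): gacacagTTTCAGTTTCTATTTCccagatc
Gbp7, ISRE, chr3:142530273-142530302 (plus strand): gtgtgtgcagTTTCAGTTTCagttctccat
Gbp7, GAS, chr3:142530229-142530258 (plus strand): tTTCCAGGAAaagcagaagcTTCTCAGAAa
Isg15, for comparison, chr4:156200871-156200900 (minus strand): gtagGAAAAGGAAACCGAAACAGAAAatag

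In Igtp, Irgm2, Tgtp1 and Tgtp2 a GAS match is followed by an ISRE match with 2 bases between them. This spacing of 11 bases from start to start was chosen after the members had been read. Searched with the ISRE on the strand of the gene only, it occurred in 5 of the 32851 promoters (0.0152%). These were the promoters of these 4 members and of Gm12185, another IRG gene of the cluster that holds Tgtp1 and Tgtp2. Igtp and Irgm2 have nearly the same stretch, as do Tgtp1 and Tgtp2, so that their matches are not separate occurrences. The motif pair lay 45 bases upstream of the RefSeq start in Igtp, 75 in Irgm2, 88 in Tgtp1 and 81 in Tgtp2. In the 3 GBP genes of chromosome 3 the ISRE match reads on the other strand, and Gbp3 and Irgm1 each held a pair of overlapping matches. Isg15, an antiviral gene of the type I response, held 3 overlapping ISRE matches and no GAS match. Of 34 type I antiviral genes with a listed promoter, 18 held an ISRE match (52.9%) and 7 a GAS match (20.6%), and of 8 other GBP and IRG genes 5 and 3 did (62.5% and 37.5%). A match is a description of letters and not a measured binding site.

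**Figure D1:**
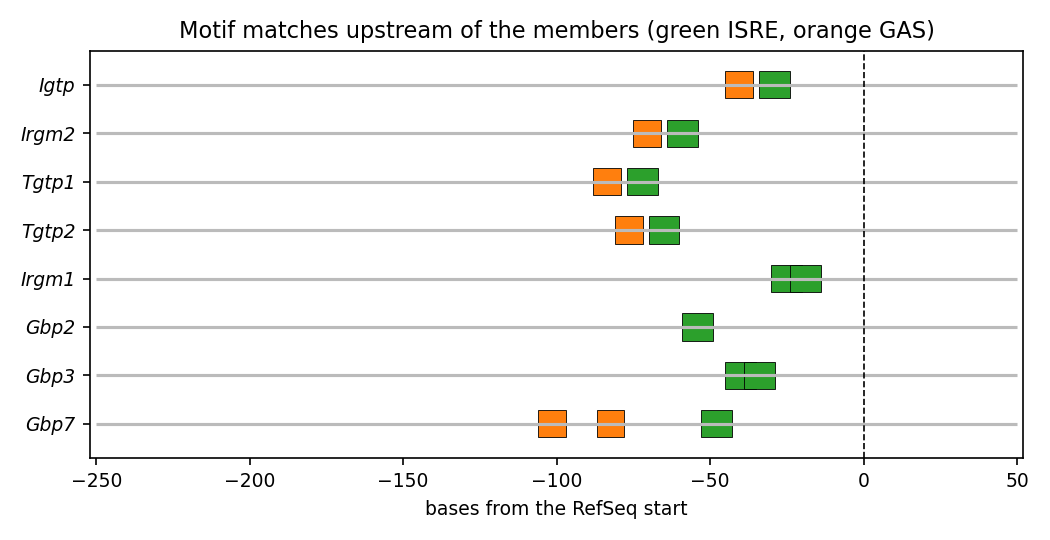
Matches to the ISRE (green) and GAS (orange) in the promoters of 8 members, drawn to scale as bases from the RefSeq start (dashed line). Gbp3 has a second listed promoter without a match, which is not drawn. The GAS and ISRE boxes of Igtp, Irgm2, Tgtp1 and Tgtp2 have the same spacing.

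The GTPase genes were well expressed in cells of both genotypes. The 10 members summed to 1277 and 1411 CPM in wild-type and 1425 and 1385 CPM in knockout libraries, which overlap. The 4 GBP members summed to 436 and 530 against 478 and 456 CPM, with overlap, and the 6 IRG members to 840 and 881 against 947 and 929, higher in both knockout libraries. With the other listed GTPase genes, some of them very large inducible GTPases and neither GBPs nor IRGs, 31 genes were summed. These sums were 1867 and 2034 against 2124 and 2080 CPM, also without overlap. These sums were not tested, and single genes weigh on them. Igtp and Iigp1, both higher in the knockout libraries, made up 36.5% and 9.83% of the members' sum in wild type. In knockout they made up 37.1% and 13.15%. The libraries of the other IRG members, Irgm1, Irgm2, Tgtp1 and Tgtp2, overlapped. Both knockout libraries lay above both wild-type libraries in 21.5% of all tested genes. CPM is not divided by gene length, because the libraries count 3' ends, and levels of genes are compared on this scale. In edgeR's quasi-likelihood test, adjusted over all 11464 tested genes, 1 of the 10 members rose (Iigp1), 0 fell and 9 did not pass, against 2.66% of all tested genes called (1.45% rose and 1.21% fell). No member fell with DESeq2 or limma-voom either, and the 2 members with an unadjusted p under 0.05, Iigp1 and Gbp6, were higher in the knockout. That p was under 0.05 for 13.5% of all tested genes. The members' median log2 fold change, knockout over wild type, was 0.03, and that of all tested genes was 0.00.

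**Figure D2:**
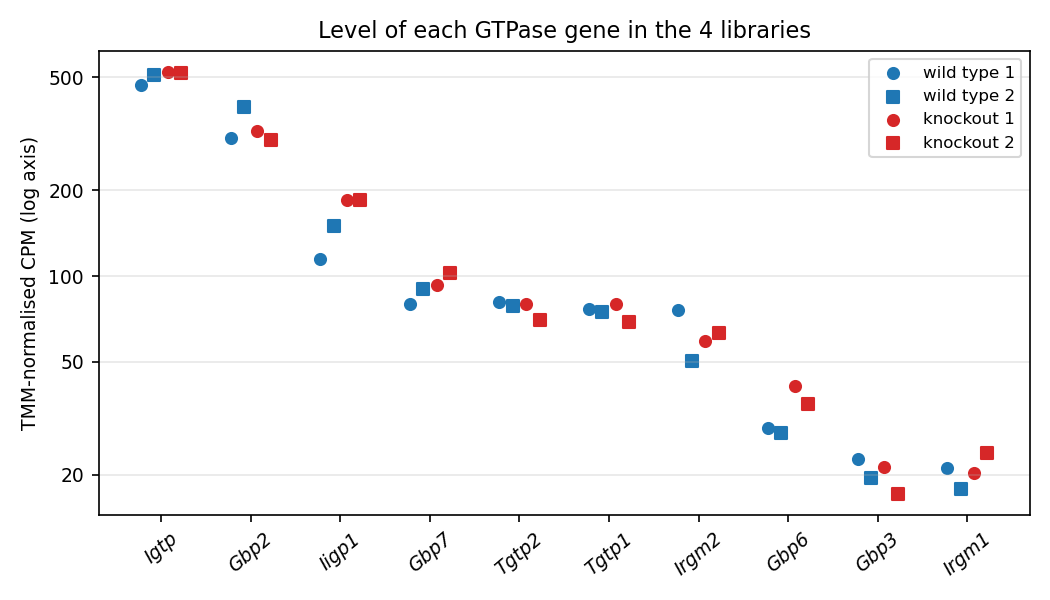
TMM-normalised CPM (log axis) of the 10 members in each of the 4 libraries, ordered by their wild-type mean, with no error bars because every library is drawn. Both knockout points of Iigp1, at 185 and 184 CPM, sit above both wild-type points, as do those of Gbp6, Gbp7 and Igtp. The knockout points of Gbp2, Gbp3, Irgm1, Irgm2, Tgtp1 and Tgtp2 lie among the wild-type points or overlap their range.

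Levels of the members spanned a wide range. Igtp made up 36.5% of the members' summed level in wild type and ranked at place 238 of 11464 tested genes, followed by Gbp2 with 25.9% and Iigp1 with 9.83%. Gbp3 and Irgm1 were the lowest, at 1.57% and 1.45%. In wild type and over all 4 libraries, Igtp, Gbp2, Iigp1 and Gbp7 followed each other in this order without overlap. Gbp7, Tgtp2, Tgtp1 and Irgm2 formed a middle group between 50.4 and 102 CPM whose neighbours overlapped over the 4 libraries. Gbp6 lay below them and above Gbp3 with no overlap, and Gbp3 and Irgm1 could not be ordered.

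Among the effector IRGs, Iigp1, also called Irga6, which assembles on vacuoles of parasites, was higher in both knockout libraries. It was at 115 and 149.5 CPM in wild type and at 185 and 184 in knockout. The genotypes did not overlap, and the wild-type libraries stood further apart than the knockout ones. The log2 fold change was 0.48 (SE 0.103, 95% interval 0.27 to 0.69, adjusted p = 0.00427), a 1.40-fold difference. Both knockout libraries lay above both wild-type libraries in 4 of the 10 members (Iigp1, Gbp6, Gbp7 and Igtp) and in 21.5% of all tested genes. Both lay below in 0 of 10 members and 21.9% of all tested genes, so that 43.4% of all tested genes did not overlap in either direction. The call rested on WT 1, the lower of the pair: without it the log2 fold change was 0.30 and the adjusted p 0.164.

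Tgtp1 and Tgtp2, effectors also called Irgb6, lie in the same cluster on chromosome 11 (48985327 to 48994172 and 49057194 to 49064206, minus strand, GENCODE vM21 on GRCm38). On the same strand, the annotated body of Gm12185 covers the 3' end of Tgtp1. Both Tgtp1 and Tgtp2 overlap Olfr56 on the opposite strand. Their longest annotated coding transcripts are 99.8% identical over 2810 aligned bases, and all 251 windows of 50 bases in the last 300 bases of each occur in the other. Reads of this end cannot be told apart, so that the value of each gene alone is uncertain. Tgtp1 had 674 and 708 counts in wild type and 782 and 633 in knockout, and Tgtp2 had 713 and 745, and 783 and 646. The ratio of the pair was 0.945 to 0.999 in the 4 libraries. Summed into a single feature, they had a log2 fold change of -0.06 (95% interval -0.25 to 0.14, adjusted p = 0.875), and the libraries of the genotypes overlapped.

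The regulatory IRGs Igtp, Irgm1 and Irgm2 did not pass the test. Igtp, also called Irgm3, a GTPase of the endoplasmic reticulum, was at 471 and 509 CPM in wild type and 522.5 and 519 in knockout. Its knockout libraries were both higher, and the log2 fold change was 0.09 (95% interval -0.06 to 0.23, adjusted p = 0.667). Irgm1, which protects against mycobacteria and acts in autophagy, was at 21.1 and 17.8 CPM in wild type and 20.2 and 23.9 in knockout, with overlap between the genotypes. Its interval ran from -0.26 to 0.62 around a log2 fold change of 0.18 (adjusted p = 0.797). Irgm2 was at 76.0 and 50.4 CPM in wild type, the widest wild-type gap relative to level among the 10 members, and at 59.3 and 63.3 in knockout, inside the wild-type range. Its log2 fold change was -0.04 (95% interval -0.34 to 0.26, adjusted p = 0.951), and it was 0.28 without WT 1. The annotated gene body of Irgm2 (chromosome 11, 58199618 to 58222782, plus strand) runs over that of Igtp (58199556 to 58207591, plus strand), but 0 of the 251 windows in the last 300 bases of either occur in another gene.

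The GBP members of chromosome 3 (Gbp7 at 142530342 to 142550149, Gbp3 at 142560026 to 142573209 and Gbp2 at 142620602 to 142638008, all on the plus strand) had no common direction. Gbp2, which is recruited to vacuoles of Toxoplasma and acts in inflammasome activation by bacteria, was at 305 and 393 CPM in wild type and 323 and 301 in knockout. Wild-type replicate 2 stood above the other 3 libraries. The log2 fold change was -0.16 (95% interval -0.34 to 0.02, adjusted p = 0.444). Leaving out WT 1 gave -0.33 and a call (adjusted p = 0.0173), and leaving out WT 2 gave 0.03 (adjusted p = 0.95), so that its direction depended on which wild-type library was kept. Gbp7 was at 79.5 and 90.1 CPM in wild type and 92.8 and 102 in knockout. Its libraries did not overlap, yet its log2 fold change of 0.20 (95% interval -0.03 to 0.43, adjusted p = 0.46) did not pass. Gbp3 was at 22.7 and 19.5 CPM in wild type and 21.4 and 17.2 in knockout (-0.13, 95% interval -0.57 to 0.31, adjusted p = 0.87), with overlap.

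Gbp6 lies in the second GBP cluster, on chromosome 5 (105270702 to 105293698, minus strand). It was at 29.3 and 27.98 CPM in wild type and at 41.0 and 35.55 in knockout, without overlap. The log2 fold change of 0.42 (95% interval 0.07 to 0.76) did not pass after adjustment over all genes (adjusted p = 0.24). All 251 windows in the last 300 bases of its transcript occur in other annotated genes, Gbp10 and Gm43302 among them, so that its counts are uncertain. Gbp6 and Gbp10 summed, a feature chosen after seeing the data, had 412 and 392 counts in wild type and 630 and 518 in knockout, and a log2 fold change of 0.45 (95% interval 0.17 to 0.74, adjusted p = 0.0839).

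**Figure D3:**
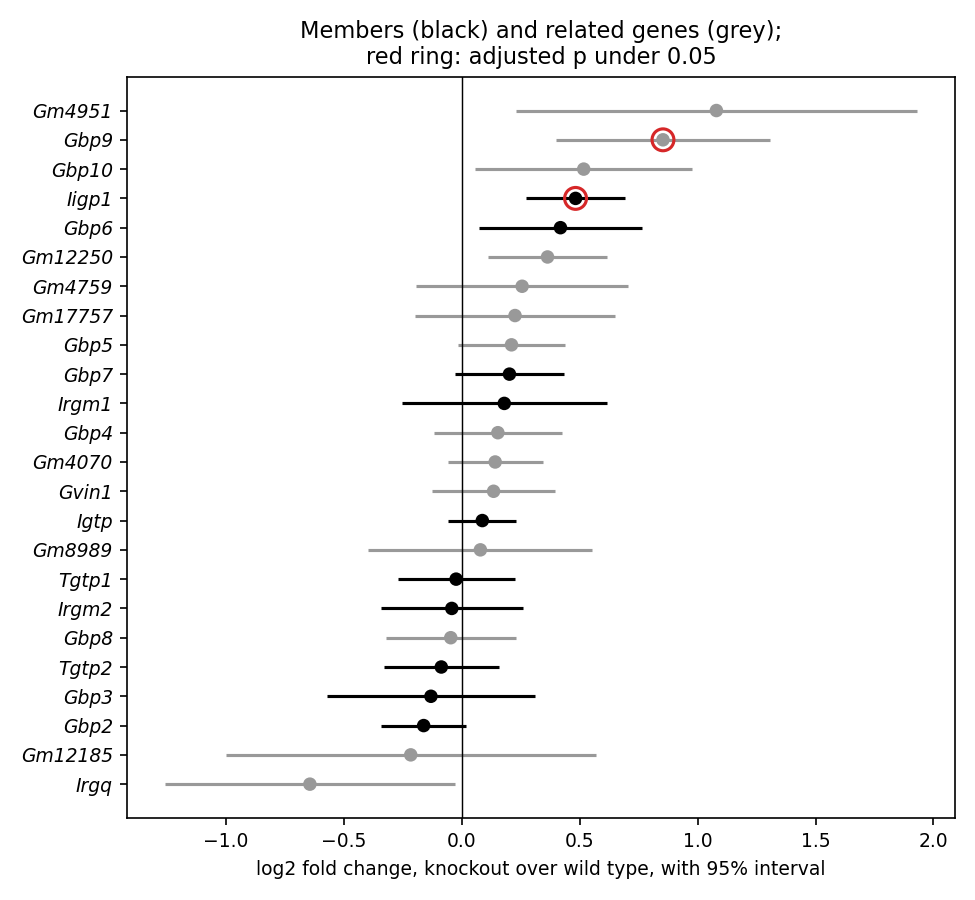
Log2 fold change, knockout over wild type, with its 95% interval, for the 10 members (black) and for related genes (grey) that were tested and whose mean reached 5 CPM in either genotype. Red rings mark the genes with an adjusted p under 0.05, Iigp1 and Gbp9, and the intervals of 8 of the 10 members cross 0.

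Of 18 other tested GTPase genes listed beside the members, 1 rose (Gbp9), 0 fell and 17 did not pass. This was 5.56% called against 2.66% of all tested genes, and their median log2 fold change was 0.22. Besides GBPs and IRGs, the list held Gvin1, Gm4070, Gm8989, Gm4759 and Gm17757. These are genes or pseudogenes of the very large inducible GTPases, a separate family. All 251 end windows of Gvin1 occur in Gm4070 and the reverse, so that these genes are not separate measurements. Of the 5 with an unadjusted p under 0.05, Irgq was lower in the knockout (-0.64, adjusted p = 0.335), and 0 genes fell with DESeq2 or limma-voom. Gbp9 was at 15.9 and 14.8 CPM in wild type and 33.4 and 21.96 in knockout, with the knockout libraries far apart and no overlap. The annotated body of Gbp9 overlaps those of Gbp4 and Gbp8 on the same strand. Its log2 fold change was 0.85 (SE 0.223, adjusted p = 0.0273). The call was lost without KO 1 (0.52, adjusted p = 0.516), without WT 2 (adjusted p = 0.167), with upper quartile scaling (0.0567) and with DESeq2 (0.0853).

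Taken by locus, a grouping made after the values were seen, 5 of the 6 tested GBP genes of chromosome 5 had both knockout libraries above both wild-type libraries (21.5% of all tested genes did), and their sum was 175 and 171 CPM in wild type and 219 and 195.5 in knockout. All windows at the end of Gbp6 and Gbp10, and 137 of 251 in Gbp11, occur in other genes, so that these are not separate measurements. The 5 GBP genes of chromosome 3 summed to 528.5 and 649 CPM in wild type and 571 and 596 in knockout, with overlap. The 10 IRG genes of chromosome 11 summed to 793 and 803 against 849 and 833 CPM, without overlap. Igtp, the highest of them, was at 471 and 509 against 522.5 and 519 CPM. Of the 9 tested, 2 had both knockout libraries above both wild-type libraries. Gm12250, which the annotation lists as a processed pseudogene and which is also known as Irgb10, was at 59.2 and 61.1 CPM in wild type and 76.1 and 78.7 in knockout (0.36, adjusted p = 0.128). Gm4951, an IRG gene near Iigp1, was at 1.93 and 7.18 CPM in wild type and 11.03 and 8.37 in knockout (1.08, SE 0.418, adjusted p = 0.21).

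**Figure D4:**
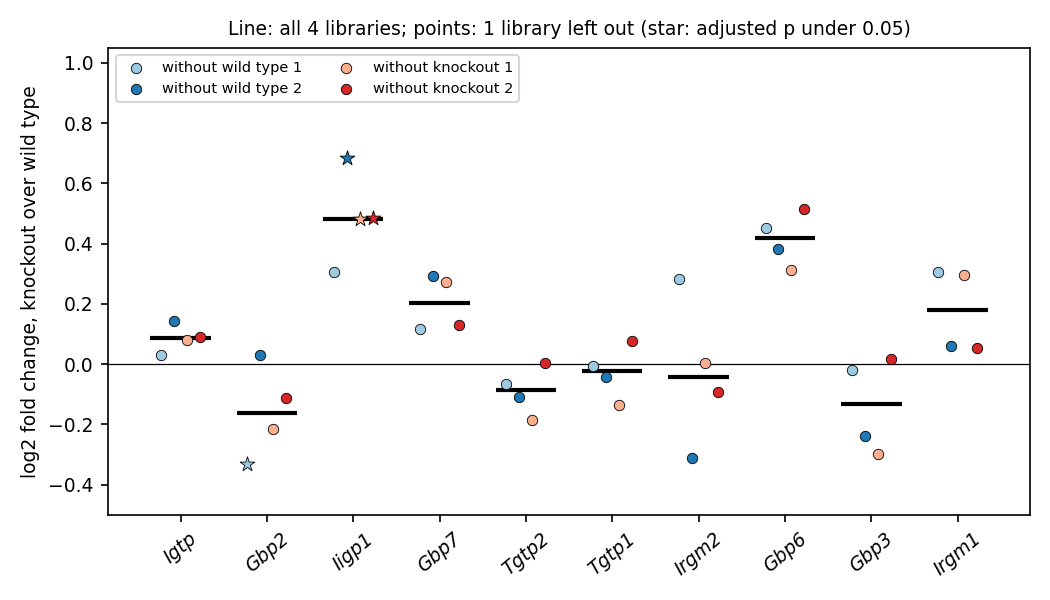
Log2 fold change of each member with all 4 libraries (black line) and with 1 library left out (points, a star where the adjusted p was under 0.05), where the lone library of a genotype is assumed to vary like the other pair. Iigp1 drops to 0.30 without WT 1, Gbp2 moves between -0.33 and 0.03, and Irgm2 between -0.31 and 0.28.

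Next to these GTPases, genes typical of type I interferon were higher in the knockout. In a list of 46 such antiviral genes, 42 were tested, of which 16 rose, 0 fell and 26 did not pass, or 38.1% called against 2.66% of all tested genes, and 0 fell with DESeq2 or limma-voom. All 42 had a log2 fold change above 0, where 50.1% of all tested genes did, including all 36 with an unadjusted p under 0.05, and their median was 0.99. Both knockout libraries were above both wild-type libraries in 40 of the 42 and in 21.5% of all tested genes. The ubiquitin-like modifier Isg15 went from 24.0 and 23.7 CPM to 62.3 and 77.2, a log2 fold change of 1.55 (adjusted p = 2.81e-08). Irf7, a transcription factor of the type I response, went from 10.9 and 8.87 CPM to 27.0 and 26.0 (1.42, adjusted p = 0.000143), and Trim25, a ubiquitin ligase of viral RNA sensing, from 72.7 and 85.3 to 125 and 135 (0.72, adjusted p = 6.67e-05). Trim30a went from 206 and 200.5 CPM to 312 and 316 (0.63, adjusted p = 3.29e-06). The other 12 that rose were Ifi44, Oas3, Lgals3bp, Xaf1, Mx2, Samd9l, Ifi27l2a, Rsad2, Parp14, Ifih1, Mx1 and Herc6, with log2 fold changes from 0.42 for Ifi27l2a to 3.37 for Mx1, which had 0 and 10 counts in wild type. Ifit1, which binds viral RNA, was low and did not pass (0.909 and 3.27 CPM against 4.60 and 6.85, adjusted p = 0.218).

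The difference between the members and the type I list was not tested, since both were chosen with results of these data known. The type I list held 16 rises with all 4 libraries, and 12 without KO 1 to 17 without WT 2. Leaving out a library ended the call of Mx1 (2.42 without WT 1, adjusted p = 0.0614, and 2.98 without KO 1, 0.227), Herc6 (without WT 2, 0.173, or KO 1, 0.233), Ifih1 (without WT 2, 0.0843, or KO 1, 0.163), Samd9l (without KO 2, 0.116) and Ifi27l2a (without KO 1, 0.112). Without WT 2 the log2 fold change of Mx1 was 8.73. DESeq2 did not call Mx1 (0.635) or Herc6 (0.0549). The median log2 fold change of the type I list was 0.67 with the filter of at least 5 CPM in 2 libraries, which leaves out low genes. The fall of 12 of 15 B cell markers moved with these rises between the genotypes, and its part in them was not tested.

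Other genes induced by interferon gamma showed no common shift. Of 24 tested, 1 rose, 2 fell and 21 did not pass (12.5% called against 2.66% of all tested genes), with a median of 0.03. Tapbp, a chaperone of MHC class I loading, went from 415 and 416 CPM to 508 and 492 (0.27, adjusted p = 0.0306). The suppressor of cytokine signalling Socs3 fell from 201 and 209 CPM to 152 and 169 (-0.35, adjusted p = 0.0244). The chemokine Cxcl9 had 15 and 17 counts in wild type and 0 in both knockout libraries. Its wild-type mean was 11.1-fold above a floor of 3 counts over both knockout libraries, a ratio that leaves out the error of that mean. Tapbp and Cxcl9 lost their call whichever library was left out, while the log2 fold change of Tapbp stayed between 0.24 and 0.29. Cxcl9 also lost its call with the replicate number as a block (adjusted p = 0.0659). Socs3 lost its call without WT 2 (0.172) or KO 1 (0.372), and Tapbp also with upper quartile scaling (0.0513). Irf1, the factor between interferon gamma and many of these genes, was at 484 and 551 CPM in wild type and 512 and 496 in knockout, with overlap and an adjusted p of 0.896.

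**Figure D5:**
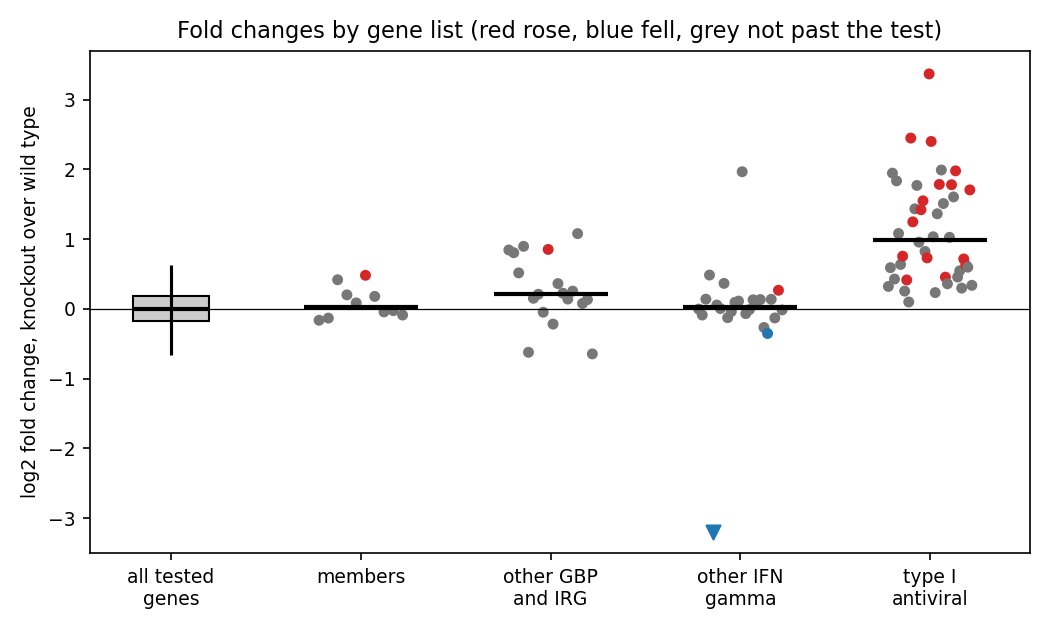
Log2 fold changes, knockout over wild type, by gene list, with a point per tested gene (red rose, blue fell, grey not past the test) and a line at the list's median. The first column is a box from the 25th to the 75th percentile of all tested genes with whiskers from the 5th to the 95th, and the triangle is Cxcl9, drawn off scale because it had 0 counts in the knockout. The members' median is 0.03 and that of the type I list is 0.99.

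Of the ligands, receptors and signalling genes, 20 were tested, of which 2 rose, 1 fell and 17 did not pass. This was 15% called against 2.66% of all tested genes, with a median of -0.02. Ifng, the cytokine that induces GBPs and IRGs, was at 11.7 and 15.4 CPM in wild type and 7.97 and 7.28 in knockout. Both knockout libraries were lower, and the log2 fold change of -0.83 (95% interval -1.43 to -0.23) did not pass (adjusted p = 0.155). The receptor chains Ifngr1 (-0.28, adjusted p = 0.218), Ifngr2 (-0.26, 0.699), Ifnar1 (0.39, 0.187) and Ifnar2 (0.09, 0.84) did not pass. Stat2 and Irf9, which encode factors of the type I response, rose. Stat2 went from 29.9 and 45.3 CPM to 58.1 and 57.7 (0.62, adjusted p = 0.0241), and Irf9 from 119 and 109 CPM to 154 and 138 (0.36, adjusted p = 0.0435). The fall was that of Socs3, which this list shares. Stat2 lost its call on leaving out WT 1 (log2 fold change 0.35), KO 1 (0.62) or KO 2 (0.63). Irf9 lost its call on leaving out WT 2 (log2 fold change 0.295), KO 1 (0.28) or KO 2 (0.44). Both calls were lost with upper quartile scaling (adjusted p = 0.0567 and 0.0781) and DESeq2 (0.0876 and 0.0793), and that of Irf9 with the replicate number as a block (0.0532).

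Genes that act with GBPs and IRGs at vacuoles, in the conjugation of ATG8 proteins and in inflammasomes showed 0 rises and 0 falls among 23 tested, also with DESeq2 and limma-voom, against 2.66% of all tested genes called. An unadjusted p under 0.05 was found for 4 of the 23 and for 13.5% of all tested genes. These 4 were the cytokine genes Il18 and Il1b, the pore-forming effector Gsdmd and the DNA sensor Aim2. Il18 was the nearest to a call, with 0 and 1 counts in wild type and 12 and 20 in knockout (adjusted p = 0.052). Gsdmd had a log2 fold change of -0.48 (adjusted p = 0.28), Aim2 of 0.31 (0.313) and Il1b of -1.56 (0.321).

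The root mean square distance of a member's centred log2 CPM from the mean profile of the members ran from 0.0483 for Igtp to 0.245 for Iigp1. The genes nearest to that mean profile, among 7772 others with at least 10 CPM, were Atxn2l (0.00485), Mcl1 (0.00885), Nr2c2 (0.0111), Set (0.0118) and Ier3ip1 (0.0138). These are the lowest of 7772 distances, each over 4 libraries, and are given as a description.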

How the data were processed

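RNA was sequenced from 4 libraries, prepared with the QuantSeq kit of Lexogen (input 500 ng of RNA), per the labels' protocols. The authors deposited raw counts per gene symbol, 1 table per library. Bowtie2, edgeR and mm10 are named in the submitters' processing notes without role or version. The sources used here do not give the counting tool, annotation, use of strand or handling of reads with several matches. Symbols listed more than once (35) were summed. Genotypes were compared with the quasi-likelihood F test of edgeR 4.0.16 in R 4.3.3, two-sided, with TMM scaling, filterByExpr, genotype as the only term and Benjamini-Hochberg adjustment over 11464 tested genes. Only genes with an adjusted p under 0.05 are called and said to have risen or fallen. SE is the log2 fold change divided by the square root of F, and intervals are 95%. The test was run on simulated counts drawn with the dispersion fitted to these libraries, which cannot show whether the replicates were technical. Floors cover counting error only.

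Members and lists were chosen with earlier results of these data known. Named genes are the 10 members, called genes of each list or, with none called, up to 4 by smallest p, summarised where many, Ifng, Irf1, Isg15 and Ifit1, and the 5 genes nearest to the members' mean profile. Ifngr1, Ifngr2, Ifnar1, Ifnar2, other listed GTPase genes, Cd3d, Cd4 and Il2ra were added after their values were seen. A further gene under this rule is not reported here. Promoters are from RefSeq (GRCm38.p6), and positions and transcripts from GENCODE vM21 (GRCm38). Protein sequences were not used here, and transcripts were aligned with Biopython 1.88. Alternatives were other scalings, filters, DESeq2 1.42.0, limma-voom (limma 3.58.1), a replicate block, leaving out each library, summing near-identical genes and leaving out Rn45s.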

Additional observations from a re-analysis of the deposited data

How the results depend on the processing

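Over 15 alternatives, 141 of 149 values of the members kept their direction and their side of the threshold, and the 8 that did not all came from leaving out a library. With a library left out, log2 fold changes ran from -0.333 to 0.031 for Gbp2 (positive without WT 2), -0.298 to 0.0154 for Gbp3 (positive without KO 2), -0.313 to 0.282 for Irgm2 (positive without WT 1, and 0.0032 without KO 1), -0.138 to 0.0778 for Tgtp1 and -0.186 to 0.00233 for Tgtp2 (both positive without KO 2), and -0.129 to 0.0578 for Irf1 (positive without WT 2). Iigp1 ran from 0.305 to 0.685. The cause was not tested. Then 0 to 1 members rose and 0 to 1 fell.

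With a library left out, the genes called numbered 92 to 148 rises and 75 to 145 falls over all genes, 0 to 1 rises among other GBP and IRG genes, 0 rises in each of the 4 fits and 0 to 2 falls among other interferon gamma genes, and 0 to 1 rises and 0 to 1 falls among signalling genes. Upper quartile scaling gave 0 rises in each of these last 3 lists. DESeq2 gave 0 rises among other GBP and IRG genes and 0 among signalling genes. Other interferon gamma genes held 1 fall with at least 5 CPM in 2 libraries, where Cxcl9 was not tested, and 1 with the replicate block, which also left 1 signalling rise and changed no call of a member. Replicate numbers share no stated source, and the correlation over genes of replicate 1 minus 2 between the genotypes was 0.0111, so that no pairing was assumed. The precision of each member is that of its 95% interval, widest for Gbp3 (-0.57 to 0.31) and narrowest for Igtp (-0.06 to 0.23).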
